A study of Mus musculus with 20 samples.

Results

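Chemokines are small secreted proteins that steer white blood cells along a gradient, and each acts through a G protein-coupled receptor on the cell it attracts. Ligands such as Ccl2 draw monocytes into tissue through Ccr2, Cxcl1 and its relatives draw neutrophils through Cxcr2, and Ccl19, Ccl21 and Cxcl13 guide lymphocytes that carry Ccr7 or Cxcr5 to their zones in lymph nodes. In obese fat Ccl2 and Ccr2 are known for bringing in monocytes that become macrophages, while in the gut epithelium Ccl25 and Ccl28 guide lymphocytes to the wall.

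The genes described here are 39 chemokines and chemokine receptors, picked by name as a gene family, with earlier results of these data known. A gene was taken from the array by the RefSeq accession of its probes, and its brightest probe over all arrays stood for it. This found 38 of the 39 among 21154 genes with a symbol, 26 ligands and 12 receptors. Cxcl11 was not matched. Of the 38, 37 were well above background on at least 1 array, and Ccl20 was on none.

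The mice were male C57BL/6J, 5 weeks old at the start, and ate their diet for 13 weeks. The control diet (CD) gave 10% of its energy as fat and the high-fat diet (HFD) 60%. HFD+PP was the high-fat diet with 2% porphyran, the sulfated polysaccharide of the red seaweed nori, and HFD+Ex was the high-fat diet with 2% of a nori extract. No group received a supplement on the control diet. RNA of the liver, of mesenteric white and of brown fat, and of ileum and colon was pooled from 7 mice of a diet and put on 1 array, which gives 20 arrays. There is thus no replicate of any diet in any tissue, and no test of a diet difference within a tissue was possible. A diet difference averaged over the 5 tissues was not tested.

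A level below is the log2 of the background-subtracted spot intensity minus the 75th percentile of the same array. Where 4 levels follow each other they belong to the CD array, then HFD, then HFD+PP, then HFD+Ex. A difference between diets is a difference of log2 levels, given as a fold, and a gene rose or fell where the fold was at least 2. A gene counts as measured in a comparison if either array showed it well above background. Where the other array was not, the fold was taken against a floor and is written "at least". Levels of different genes come from different probes and are not set against each other.

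Between 50.7% and 67.9% of the spots of an array were well above background and none was saturated. Floors lay between −6.36 and −4.49. The brown fat CD array had both the lowest share of such spots and the highest floor. All HFD against CD differences in brown fat rest on that array. Replicate spots on an array put the technical standard deviation of a difference at 0.093, which holds none of the variation of mice or pools. In each of the 5 tissues all 7 or 8 marker genes checked for it were well above background on its own arrays. Presence alone does not set tissues apart, as all 8 fat cell markers were also well above background on every ileum and colon array. Their summed level was 4.66 to 5.86 in ileum and 5.26 to 5.77 in colon, against 10.26 to 10.57 in mesenteric fat. The arrays stood on 4 slides. All liver arrays shared a slide, and so did all ileum and all colon arrays. In mesenteric fat the HFD+PP and HFD+Ex arrays, and in brown fat the HFD+Ex array, lay on another slide than the HFD array, so that there slide and diet cannot be told apart. In each tissue the 3 comparisons with HFD share the same HFD array, so a value off by chance on it would move all 3.

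Many of these genes sit side by side in the genome. In the RefSeq annotation of GRCm38.p6, 12 members lay on chromosome 11, 10 of them in the neighbouring runs Ccl2, Ccl7, Ccl11, Ccl12, Ccl8 and Ccl5, Ccl9, Ccl6, Ccl3, Ccl4. The other two, Cxcl16 and Ccr7, lay apart. Chromosome 5 held 7 members, with Cxcl1 next to Cxcl2, and chromosome 9 also held 7, all of them receptors. Promoter sequences, taken from RefSeq as 250 bases before the transcription start to 50 after it, were matched for 28 members. Ccl2, Ccl7, Ccl4, Ccl5, Ccl11, Ccl24, Cxcl5, Cxcl16, Ccr7 and Cxcr5 were not matched.

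The 4 promoters below belong to ligands that changed with diet in different tissues, as given below: Cxcl1 in liver and fat, Cxcl2, its neighbour, in mesenteric fat, Cxcl10 in liver and colon, and Ccl9 in both fat depots. Each line gives the 250 bases before the start, on the strand of the gene. Capitals mark a match on either strand to the binding consensus of NF-kB, a transcription factor switched on by inflammatory signals. In Cxcl10 the first run of capitals is instead the core of the interferon-stimulated response element, searched on both strands as GAAA, any 2 bases, and GAAA again.
Cxcl1: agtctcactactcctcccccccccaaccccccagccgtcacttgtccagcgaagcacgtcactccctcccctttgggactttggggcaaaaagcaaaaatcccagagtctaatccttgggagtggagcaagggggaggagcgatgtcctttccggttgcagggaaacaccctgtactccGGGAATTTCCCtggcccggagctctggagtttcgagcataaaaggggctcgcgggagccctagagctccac
Cxcl2: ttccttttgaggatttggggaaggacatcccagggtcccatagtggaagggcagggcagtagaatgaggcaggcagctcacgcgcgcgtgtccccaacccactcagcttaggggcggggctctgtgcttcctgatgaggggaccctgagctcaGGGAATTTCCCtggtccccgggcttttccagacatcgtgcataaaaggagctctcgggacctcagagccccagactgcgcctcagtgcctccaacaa
Cxcl10: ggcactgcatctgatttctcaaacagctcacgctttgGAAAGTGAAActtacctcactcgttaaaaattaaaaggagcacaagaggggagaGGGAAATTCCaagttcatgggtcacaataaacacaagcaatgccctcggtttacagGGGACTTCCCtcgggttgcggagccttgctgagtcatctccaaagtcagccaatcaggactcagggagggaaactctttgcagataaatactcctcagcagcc
Ccl9: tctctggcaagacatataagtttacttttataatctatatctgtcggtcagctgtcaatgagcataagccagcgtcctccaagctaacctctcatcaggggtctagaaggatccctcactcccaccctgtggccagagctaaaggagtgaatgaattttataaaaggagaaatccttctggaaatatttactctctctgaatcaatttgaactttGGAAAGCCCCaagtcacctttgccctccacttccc
These windows are chr5:90890995-90891244 on the plus strand for Cxcl1, chr5:90903649-90903898 on the plus strand for Cxcl2, chr5:92348890-92349139 on the minus strand for Cxcl10 and chr11:83578637-83578886 on the minus strand for Ccl9, all in GRCm38.p6. Cxcl1 and Cxcl2 carry the same 11-base run of overlapping matches, GGGAATTTCCC, which begins at base −71 from the start of Cxcl1 and at −97 from that of Cxcl2. The Cxcl10 window holds the interferon element at base −213 and NF-kB matches at −159 and −103, and that of Ccl9 an NF-kB match at −35. An NF-kB match stood in the promoters of 7 of the 28 members and in 4.51% of all 32851 promoters of that length. Members were counted as genes, by a match in any of their promoters, while all promoters were counted singly. Ccl25 and Ccr6 each had a second promoter. The interferon core stood in those of 2 members, Cxcl10 and Cxcl14, and in 3.44% of all promoters. The letters TATAAA on the gene strand, the TATA box, stood in 8 members and in 8.32% of all promoters. Every promoter printed above holds an NF-kB match. Ccl3, Ccl6, Ccl8, Ccl17, Ccl22, Cxcl9 and Cxcl13 also changed with diet, and their promoters held neither an NF-kB match nor the interferon core. The same held for the ligands Ccl12, Ccl25, Ccl28 and Cx3cl1. It held too for the receptors Ccr2, Ccr9, Cx3cr1, Cxcr2, Cxcr3, Cxcr4 and Cxcr6. Of the other changed members, Ccr3 and Ccr6 held an NF-kB match and Cxcl14 the interferon core. A match is a run of letters, and no binding was measured.

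**Figure D1:**
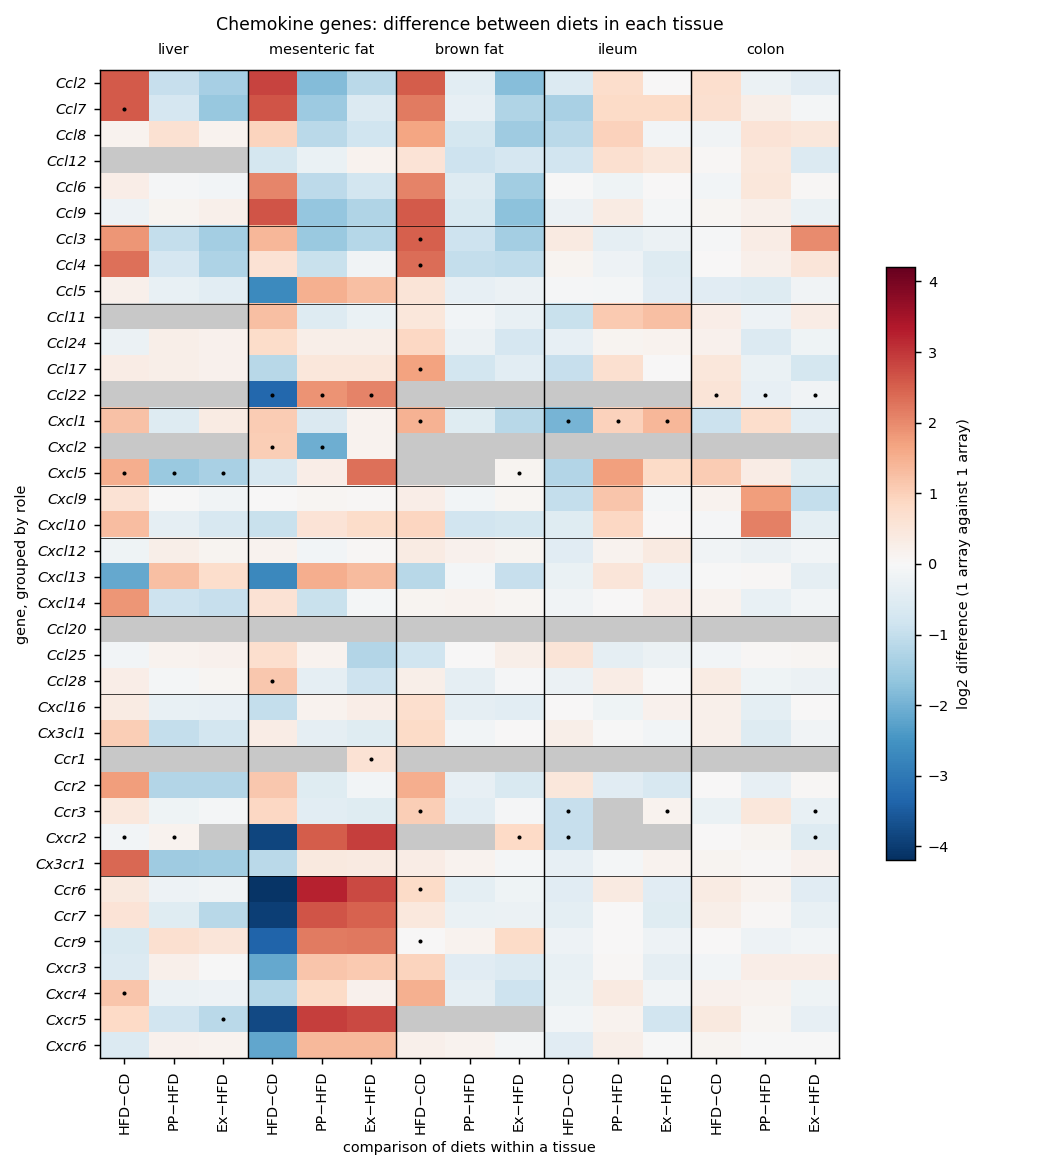
Log2 differences between diets (colour) for the 38 members on the array (rows) in 5 tissues, for HFD minus CD, HFD+PP minus HFD and HFD+Ex minus HFD (columns). Grey cells mark genes not well above background on either array and dots mark bounds. The strongest colours lie in mesenteric fat, where the 7 lymphocyte receptors are low on HFD, and the monocyte ligands are high on HFD in both fat depots.

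In liver, the monocyte ligands Ccl2 and Ccl7, 2 of the 5 measured, and the neutrophil ligands Cxcl1 and Cxcl5 were higher on HFD than on CD. So were Ccr2 and Cx3cr1, receptors carried by monocytes. Of the 32 members measured, 12 rose on HFD against CD and 1 fell, where 4.82% of all measured genes changed, 3.52% up and 1.29% down. The median member differed by 0.43 and the median gene by −0.04. On HFD+Ex 9 of 31 members fell against HFD and none rose, with 3.07% of all genes changed, 1.42% up and 1.64% down. On HFD+PP 4 of 32 fell and 1 rose, with 2.11% of all genes changed, 0.585% up and 1.52% down. Between the supplements none of 31 members differed, beside 1.87% of all genes (1.35% higher and 0.516% lower on HFD+Ex).

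Among the monocyte ligands, liver Ccl2 levels were −1.66, 0.91, −0.07 and −0.50. CD was lowest and HFD highest, a 5.94-fold rise, and HFD+Ex lay 2.65-fold below HFD, while HFD+PP stayed within 2-fold of it. The levels of Ccl7, which shares the receptor Ccr2, were −5.16, −2.32, −3.04 and −3.92, the first not well above background. Ccl7 rose at least 5.99-fold and was 3.02-fold lower with the extract. Ccl6, Ccl8 and Ccl9, other attractants of monocytes, spanned 0.27, 0.78 and 0.21 over the 4 liver arrays, so that their levels hardly varied with diet, and Ccl12 was well above background on no liver array.

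Ccl3 and Ccl4, inflammatory ligands made by macrophages and T cells, followed the same order of diets. Ccl3 levels were −3.74, −1.89, −2.88 and −3.31, and Ccl4 levels −3.42, −1.1, −1.82 and −2.41. Both were highest on HFD, 3.60-fold and 5.01-fold above CD, and on HFD+Ex they were 2.68-fold and 2.48-fold lower than on HFD. Ccl5, which attracts T cells, spanned only 0.43.

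The neutrophil ligands did not move as 1 group. Cxcl1 levels were 0.21, 1.45, 0.90 and 1.81, so that it rose 2.36-fold on HFD and was highest with the extract. Cxcl5, another Cxcr2 ligand, had levels of −5.61, −3.37, −6.12 and −5.22 and was well above background only on HFD, at least 2.90-fold over CD, 2.95-fold over HFD+PP and 2.57-fold over HFD+Ex. Cxcl2, whose promoter shares the NF-kB run of Cxcl1, was well above background on no liver array. Cxcl10, which calls in T cells with Cxcr3 and whose promoter has the interferon element, had levels of 0.71, 2.0, 1.62 and 1.34, a 2.45-fold rise on HFD. Cxcl9, its relative, spanned 0.61.

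Cxcl13, the B-cell attractant, was the only member that fell on HFD in liver. Its levels were −0.32, −2.46, −1.19 and −1.71, a 4.41-fold fall on HFD and a 2.41-fold rise with porphyran. Cxcl14, a ligand of epithelium and connective tissue, went the other way with levels of −1.38, 0.47, −0.41 and −0.51, a 3.60-fold rise on HFD. Cxcl12, the ligand of Cxcr4 that holds blood-forming cells in place, read 6.81, 6.62, 6.85 and 6.74, a span of 0.24. Cx3cl1, the membrane-bound ligand of Cx3cr1, had levels of −2.03, −1.0, −2.0 and −1.77, a 2.04-fold rise on HFD that was 2.01-fold lower with porphyran.

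Of the receptors, 2 carried by monocytes moved most. Ccr2 levels were −3.51, −1.73, −2.96 and −2.96, a 3.42-fold rise on HFD and a 2.34-fold fall with each supplement. Cx3cr1, carried by patrolling monocytes and by macrophages, had levels of −2.76, −0.34, −1.83 and −1.80, a 5.34-fold rise, with falls of 2.81-fold on HFD+PP and 2.74-fold on HFD+Ex. For both receptors each supplement level lay between CD and HFD. Cxcr4 levels were −4.83, −3.68, −3.91 and −3.90, the first not well above background, a rise of at least 2.22-fold. Ccr7 (−1.65, −1.07, −1.59 and −2.23) fell 2.23-fold and Cxcr5 (−4.37, −3.51, −4.34 and −4.64, the last not well above background) at least 2.18-fold with the extract. The other receptors measured stayed within 2-fold in every comparison with HFD. In bulk tissue RNA, fewer cells of a type and less RNA per cell cannot be told apart.

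The summed level of 20 macrophage markers was 7.08 to 7.22 over the 4 liver arrays, and 3 of 20 rose and 1 fell on HFD, with a median difference of −0.07. The 3 were Gpnmb, a gene of lipid-laden macrophages, at least 3.87 log2 higher, Itgax at 2.29 and Trem2 at 2.11. Of 10 measured monocyte and neutrophil markers 3 rose, and none of 18 T and NK cell markers or 12 B-cell markers changed. Of 7 measured mesothelium markers 5 rose, with Msln at 1.78. The summed level of fat cell markers was 3.21 on CD, 5.75 on HFD, 4.46 on HFD+PP and 4.68 on HFD+Ex, the order of CD lowest and HFD highest that Ccl2 showed. Of 6 measured on HFD 5 rose, with Cidec, a lipid droplet protein, at 4.29 log2, and 2 of 7 fell on HFD+PP and 3 of 6 on HFD+Ex. Their part in the chemokine differences was not tested. Among other chemokine ligands 1 of 5 measured rose, Pf4 by 1.57 log2, and among other receptors and decoys 1 of 10, Ackr3 by 2.05. None of 22 genes of chemokine receptor signalling changed. With normexp background correction, which adds a constant and so shrinks dim values, 7 members changed on HFD, 1 on HFD+PP and 1 on HFD+Ex. Fewer genes changed in all: 192 rose and 51 fell on HFD, against 542 and 199 without it, 15 and 49 on HFD+PP, against 90 and 234, and 29 and 43 on HFD+Ex, against 213 and 246.

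**Figure D2:**
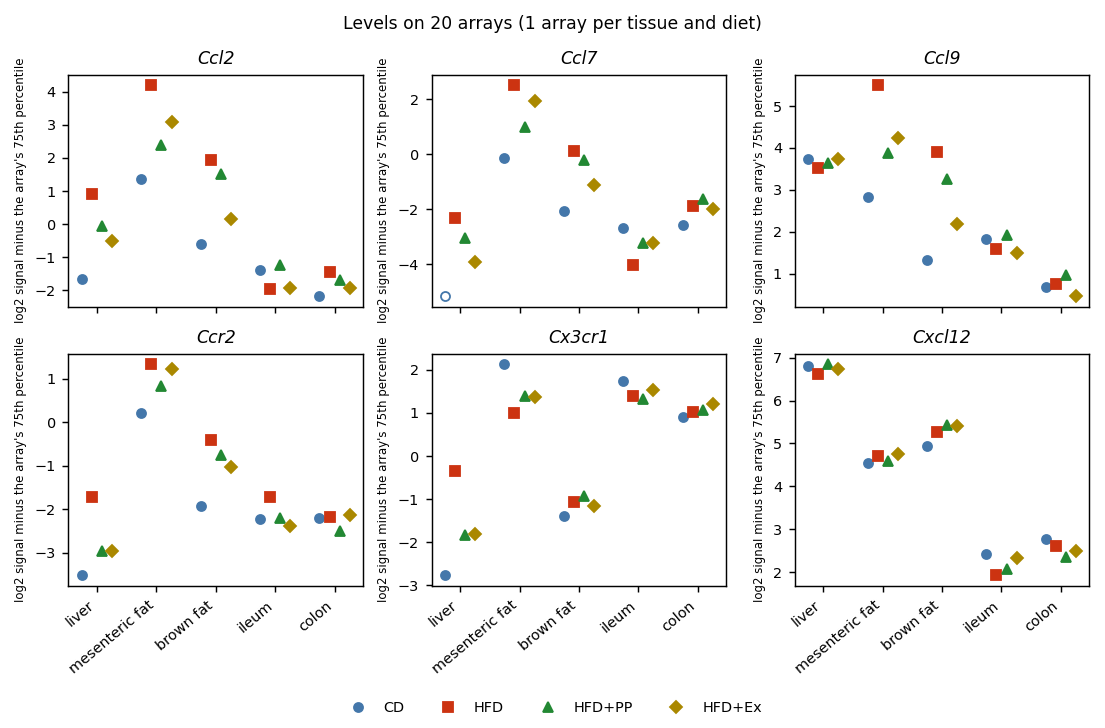
Log2 levels of Ccl2, Ccl7, Ccl9, Ccr2, Cx3cr1 and Cxcl12 on the 20 arrays, with 1 panel per gene, tissues along the x axis and diets by colour. Open markers are not well above background. Ccl2 is lowest on CD and highest on HFD in liver and both fat depots (0.91, 4.2 and 1.95 on HFD), while in ileum and colon its 4 levels lie within 0.73 and 0.72 of each other.

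Mesenteric fat, which lies along the gut and holds lymph nodes, showed the widest changes, and they ran in opposite directions. On HFD against CD, 10 of 36 measured members rose and 14 fell, where 17.7% of all measured genes changed, 9.49% rising and 8.23% falling. All 7 lymphocyte receptors fell, with a median of −3.35, and 4 of 6 monocyte ligands rose, with a median of 2.34. On HFD+PP against HFD, 10 of 36 rose and 7 fell (8.91% of all genes changed, 4.51% up and 4.41% down), and on HFD+Ex 11 of 37 rose and 4 fell (7.5%, 3.59% up and 3.91% down).

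Ccl2 levels in this fat were 1.36, 4.2, 2.39 and 3.09, a 7.18-fold rise on HFD, with falls of 3.52-fold on HFD+PP and 2.17-fold on HFD+Ex. Its neighbour Ccl7 had levels of −0.13, 2.51, 1.0 and 1.94, a 6.22-fold rise and a 2.84-fold fall with porphyran. Ccl9, whose promoter is shown above, went from 2.84 on CD to 5.50 on HFD, and read 3.88 on HFD+PP and 4.24 on HFD+Ex. These are a 6.28-fold rise and falls of 3.07-fold and 2.38-fold. Ccl6, the neighbour of Ccl9, had levels of 4.17, 6.21, 5.11 and 5.43, 4.14-fold higher on HFD and 2.15-fold lower with porphyran. For all 4 genes HFD was the highest array and CD the lowest. Ccl8 (1.84, 2.77, 1.65 and 1.92) stayed within 2-fold on HFD and fell 2.17-fold with porphyran, and Ccl12 spanned 1.01 with no call.

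Ccl3 levels were −1.83, −0.41, −1.98 and −1.60. It rose 2.67-fold on HFD and fell 2.96-fold and 2.28-fold with porphyran and extract, so that the other 3 arrays lay close together. Ccl4, next to it on the chromosome, spanned 0.96 and passed no 2-fold line. Ccl5 went the opposite way to Ccl3, with levels of 6.29, 3.61, 5.09 and 4.88. It fell 6.41-fold on HFD and was 2.79-fold and 2.40-fold higher on HFD+PP and HFD+Ex than on HFD.

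Of the ligands of eosinophils and type 2 cells, Ccl11 (eotaxin) rose and Ccl17 and Ccl22, the ligands of Ccr4, fell. Ccl11 levels were 1.90, 3.15, 2.60 and 2.86, a 2.38-fold rise. Ccl17 levels were 0.02, −1.15, −0.67 and −0.69, a 2.25-fold fall. Ccl22 levels were −2.07, −5.41, −3.50 and −3.31, the HFD value not well above background, which makes it at least 9.94-fold lower on HFD than on CD. It was at least 3.67-fold and 4.21-fold higher on HFD+PP and HFD+Ex. Ccl24, a further eotaxin, spanned 1.01 with no call.

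The neutrophil ligands differed between supplements. Cxcl1 levels were −2.21, −1.14, −1.74 and −0.99, a 2.10-fold rise on HFD. Cxcl2 was well above background on HFD at −3.99 and on HFD+Ex at −3.84, and not on CD (−7.03) or HFD+PP (−6.04). It rose at least 2.06-fold on HFD and was at least 4.12-fold lower on HFD+PP. Cxcl5 levels were −3.0, −3.68, −3.40 and −1.37, so that the extract array alone stood high, 4.94-fold over HFD and 4.07-fold over HFD+PP. Cxcr2, the receptor for all of these on neutrophils, had levels of −0.98, −4.81, −2.27 and −1.92, 14.3-fold lower on HFD than on CD, and 5.82-fold and 7.41-fold higher on HFD+PP and HFD+Ex than on HFD.

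Among ligands of lymphoid tissue, Cxcl13 levels were 3.26, 0.55, 2.10 and 1.89, a 6.53-fold fall on HFD with rises of 2.91-fold and 2.53-fold with the supplements. Cxcl12 read 4.55, 4.70, 4.59 and 4.75 by its brightest probe, within 0.20, but a second probe for it fell by 1.11 log2 on HFD, so its probes disagree. Cxcl14 spanned 0.94, Cxcl9 0.07 and Cxcl10 0.93, all without a call against HFD. The epithelial ligand Ccl28 (−5.78, −3.89, −4.27 and −4.75, the first not well above background) rose at least 2.20-fold on HFD. Ccl25 (0.39, 1.1, 1.25 and −0.14) fell 2.36-fold with the extract, a call that was lost at −0.41 log2 when all its probes were averaged. Cxcl16, the ligand of Cxcr6, had levels of 1.52, 0.52, 0.68 and 0.80, a 2.01-fold fall, and Cx3cl1 spanned 0.51.

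The receptors of lymphocytes fell together. Ccr7, which brings T cells and dendritic cells into lymph nodes, had levels of 5.52, 1.55, 4.19 and 4.05, 15.6-fold lower on HFD than on CD and 6.21-fold and 5.63-fold higher on HFD+PP and HFD+Ex than on HFD. Cxcr5, the Cxcl13 receptor of B cells, read 2.65, −1.15, 1.76 and 1.62, with a fall of 14-fold and rises of 7.49-fold and 6.81-fold. Ccr6, found on B cells and on Th17 cells, read 3.89, −0.22, 3.0 and 2.54, a fall of 17.3-fold and rises of 9.32-fold and 6.77-fold. On all 3 the HFD array stood alone, and both supplement arrays lay between it and CD.

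Ccr9, the Ccl25 receptor of gut-homing cells, showed this order too, with levels of 0.58, −2.78, −0.59 and −0.56, a fall of 10.2-fold and rises of 4.56-fold and 4.66-fold. Cxcr3, the receptor of Cxcl9 and Cxcl10 on activated T cells, read 2.18, 0.03, 1.19 and 1.13, a fall of 4.43-fold and rises of 2.23-fold and 2.15-fold. Cxcr6, found on T and NK cells, read 2.17, −0.01, 1.35 and 1.36, a fall of 4.53-fold and rises of 2.56-fold and 2.58-fold. Cxcr4, the widest in its distribution, moved least, with levels of 0.70, −0.49, 0.31 and −0.32 and a fall of 2.27-fold. It passed no 2-fold line between HFD and either supplement.

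The monocyte receptors split. Ccr2 levels were 0.22, 1.33, 0.83 and 1.23, a rise of 2.17-fold on HFD. Cx3cr1 levels were 2.13, 0.99, 1.40 and 1.36, a fall of 2.21-fold, which its 3 probes put at −1.08 to −1.28 log2. Ccr3, the eotaxin receptor of eosinophils, spanned less than 2-fold, and Ccr1 was well above background on only 1 of the 20 arrays. Between HFD+Ex and HFD+PP, 2 of 37 members were higher (Cxcl2 at least 4.59-fold, Cxcl5 4.07-fold) and 1 lower (Ccl25, 2.62-fold, but −0.60 log2 and no call with all its probes averaged), beside 3.37% of all genes (0.915% higher, 2.45% lower).

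Marker genes of other cells moved with these receptors. The summed level of the T and NK cell markers was 7.28 on CD, 4.82 on HFD, 6.21 on HFD+PP and 6.14 on HFD+Ex, and 16 of 19 fell on HFD, with Lck at −3.43 log2. That of the B-cell markers was 7.95, 5.82, 7.13 and 7.02, with 14 of 15 fallen. Lymph node stroma markers read 6.84, 6.00, 6.56 and 6.55, with 7 of 12 fallen, and markers of exocrine pancreas, a neighbouring organ, 10.95, 5.59, 11.60 and 10.10, with all 17 fallen. Intestinal epithelium markers read 3.24, 5.81, 5.44 and 3.47, with 14 of 15 risen on HFD. Macrophage markers read 8.45, 8.85, 8.30 and 8.24, with 12 of 19 risen and 3 fallen. Their part in the chemokine differences was not tested.

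Other genes tied to the chemokine system were counted as well. Of 14 measured cytokines that induce chemokines 10 fell on HFD and none rose, with lymphotoxins Lta and Ltb at −3.77 and −3.38 log2. Of 17 adhesion and homing genes 8 fell and 2 rose, with Madcam1, an adhesion molecule of gut and lymph node vessels, at −3.49 log2. Of 23 receptor signalling genes 7 fell and none rose, with Rac2 at −2.02. Among other ligands Ccl19 fell by 2.79 and Pf4 rose by 1.78. With the authors' values, which are scaled otherwise, the median gene moved from 0.14 to 0.03, and 8 members rose and 15 fell, beside 1210 rising and 1523 falling genes of all, against 1552 and 1346 before.

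**Figure D3:**
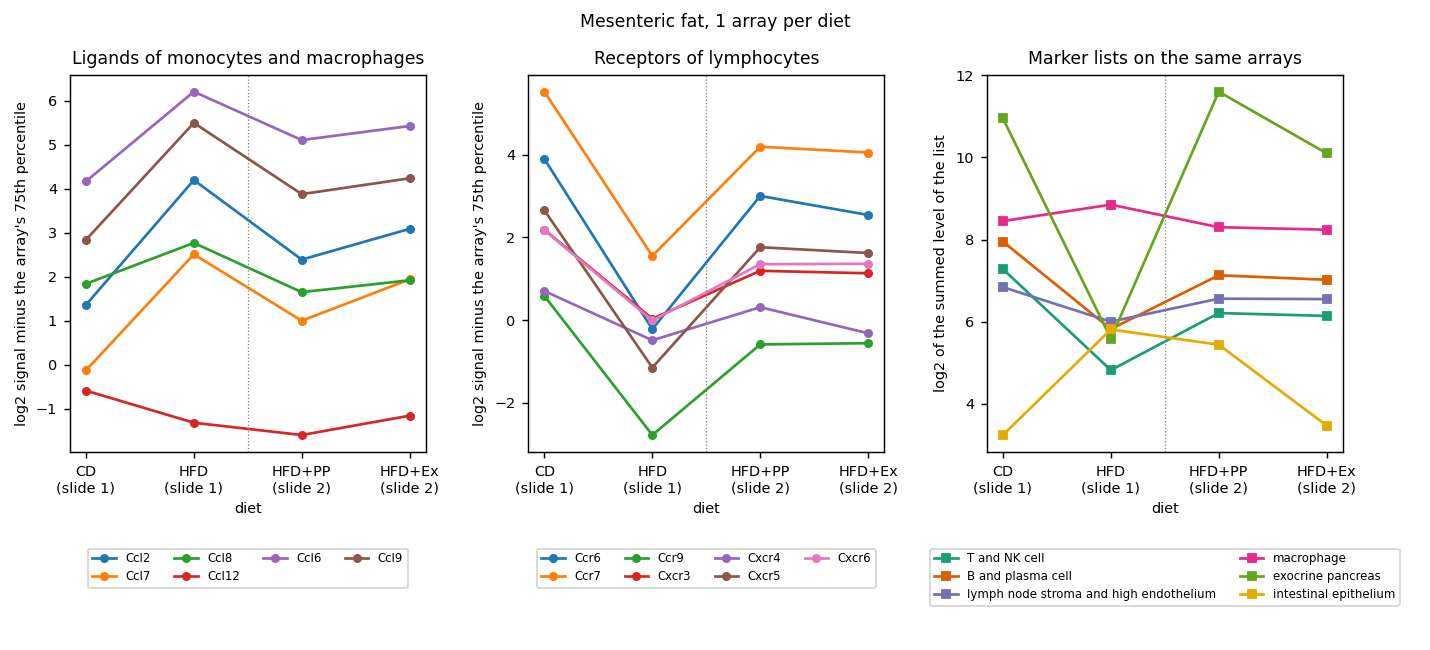
Log2 levels in mesenteric fat by diet (x axis) for monocyte ligands, lymphocyte receptors and summed marker lists, with the slide of each array given. Receptors such as Ccr7 (5.52, 1.55, 4.19 and 4.05) are low on HFD together with T and B cell markers, while ligands such as Ccl9 are highest there.

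In brown fat, the heat-producing depot, 5 of the 6 monocyte ligands were higher on HFD than on CD. Of 31 measured members, 12 rose on HFD against CD and 1 fell, where 9.41% of all measured genes changed, 6.46% up and 2.96% down. The median member differed by 0.82 and the median gene by −0.11. Both medians include genes well above background on HFD alone, whose bounds could not be negative. Among the members these were Ccl3, Ccl4, Ccl17, Cxcl1, Ccr3, Ccr6 and Ccr9. Without the filter on dim probes, and so without bounds, the medians were 0.78 and −0.19. With porphyran none of 31 changed by 2-fold against HFD, beside 3.67% of all genes (1.48% up, 2.2% down), and the median member differed by −0.38. With the extract 8 of 33 fell and none rose, beside 4.25% of all genes changed, 0.821% up and 3.43% down.

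All monocyte ligands that rose, 5 in number, stood in 1 order of diets. Ccl2 levels were −0.59, 1.95, 1.5 and 0.16, a 5.82-fold rise on HFD and a 3.45-fold fall with the extract. Ccl7 levels were −2.07, 0.11, −0.23 and −1.14, a rise of 4.52-fold and a fall of 2.38-fold. Ccl8 levels were −0.70, 0.96, 0.22 and −0.54, a rise of 3.16-fold and a fall of 2.82-fold. In each, HFD was highest, followed by HFD+PP, HFD+Ex and CD in falling order. Ccl6 (2.43, 4.52, 3.96 and 3.05) and Ccl9 (1.33, 3.90, 3.26 and 2.19) kept to that order. Ccl6 rose 4.24-fold and fell 2.76-fold, and Ccl9 rose 5.97-fold and fell 3.29-fold. Ccl2 and Ccl9 were also 2.53-fold and 2.11-fold lower on HFD+Ex than on HFD+PP, the only 2 of 33 members that differed between the supplements, beside 2.76% of all genes (1.19% higher, 1.57% lower).

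Ccl3 levels were −4.75, −1.97, −2.85 and −3.41 and Ccl4 levels −4.28, −1.93, −2.92 and −3.0, with the CD value of each not well above background. They rose at least 5.75-fold and 5.11-fold on HFD and fell 2.72-fold and 2.09-fold with the extract. Ccl17 (−4.38, −2.70, −3.46 and −3.15, the first not well above background) rose at least 3.21-fold on HFD. Cxcl1 (−4.36, −2.91, −3.42 and −4.08, the first not well above background) rose at least 2.74-fold and fell 2.24-fold with the extract. Ccl5, Ccl11 and Ccl24 spanned 0.55, 0.48 and 0.88, so the eotaxins and Ccl5 kept near 1 level over the diets.

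Cxcl13 was again the member that fell, with levels of −1.08, −2.26, −2.35 and −3.23, a 2.26-fold fall on HFD. Cxcl12 read 4.93, 5.27, 5.44 and 5.40 and stayed within 2-fold. Of the receptors, Ccr2 levels were −1.92, −0.40, −0.76 and −1.03, a 2.85-fold rise on HFD. Cxcr4 (−3.71, −2.21, −2.61 and −3.07) rose 2.83-fold and Ccr3 (−4.50, −3.46, −3.90 and −3.50, the first not well above background) at least 2.04-fold. Cx3cr1 read −1.38, −1.07, −0.93 and −1.15, within 0.45, and stayed level while Ccr2 rose. Ccr6 read −5.70, −3.68, −4.09 and −3.86, too near the floor on CD to give a bound of 2-fold, and the other lymphocyte receptors passed no 2-fold line.

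The summed macrophage markers read 5.38 on CD, 7.01 on HFD, 6.40 on HFD+PP and 5.88 on HFD+Ex, the same order as the 5 ligands. Of 19 measured, 16 rose on HFD, with Itgax at 3.38 log2 and Trem2 at 3.36, and with the extract 12 of 20 fell. B-cell markers summed to 2.27, 3.34, 2.85 and 2.64, with 2 of 12 risen and 1 fallen on HFD, and eosinophil and mast cell markers to 2.08, 3.27, 3.11 and 2.76, with 3 of 9 risen. Both sums followed that order of diets too. T and NK cell markers summed to 3.93 to 4.11. Of 22 receptor signalling genes 10 rose and 1 fell on HFD, with Rgs1 at least 3.18 log2 higher and Rac2 at 1.92. The summed level of all 23 such genes on the array went the other way. It read 7.61, 7.04, 7.04 and 7.03, highest on CD. Of 17 adhesion genes 6 rose, with the leukocyte integrin chains Itgb2 at 2.61 and Itgam at 2.01. Their part in the ligand differences was not tested. Of all changed genes 966 rose and 442 fell on HFD, against 1464 and 265 with the authors' values, whose scale moves the median gene from −0.11 to 0.15, and normexp left 5 members changed on HFD, beside 307 rising and 151 falling genes, and 4 with the extract, beside 18 and 120.

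In ileum, 5 ligands were lower on HFD than on CD. Of 34 measured members 5 fell on HFD against CD and none rose, where 3.89% of all genes changed, 1.62% up and 2.28% down. With porphyran 3 of 32 rose against HFD (2.9% of all genes changed, 1.96% up and 0.939% down) and with the extract 2 of 33 (1.83%, 1.13% up and 0.701% down). The lymphocyte receptors all stayed within 2-fold in the HFD against CD comparison.

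Cxcl9, the interferon-induced ligand of Cxcr3, had levels of 0.13, −0.88, 0.28 and −0.96. It fell 2.01-fold on HFD, where its second probe gave −0.79 log2 and so did not pass. It was 2.22-fold higher with porphyran than on HFD and 2.36-fold lower on HFD+Ex than on HFD+PP. Ccl8 levels were 0.70, −0.42, 0.56 and −0.54, the same pattern of CD and HFD+PP high and the other two low, with a fall of 2.18-fold on HFD and 2.14-fold between the supplements. These were the 2 of 33 members that differed between supplements, beside 3.32% of all genes (1.31% higher, 2.01% lower).

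Cxcl1 levels were −3.30, −5.83, −4.27 and −3.85, the HFD value not well above background. It was at least 3.86-fold lower on HFD than on CD and at least 2.63-fold higher with the extract than on HFD. Cxcl5 levels were −2.77, −4.01, −2.30 and −3.21, a 2.36-fold fall on HFD and a 3.27-fold rise with porphyran. Ccl7 levels were −2.67, −4.04, −3.23 and −3.22, a 2.58-fold fall. Ccl11 levels were −0.01, −0.93, 0.18 and 0.33, within 2-fold on HFD and 2.16-fold and 2.39-fold higher with porphyran and extract than on HFD. On all 4 genes HFD was the lowest array.

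Ccl2 read −1.37, −1.96, −1.23 and −1.92 and Ccr2 −2.22, −1.72, −2.20 and −2.39, both within 2-fold. Cx3cr1 read 1.75, 1.40, 1.33 and 1.54 and Cxcl12 2.42, 1.93, 2.07 and 2.32, also within 2-fold. Ccl25, Ccl28, Cx3cl1, Cxcl14 and Cxcl16, ligands of the epithelium and connective tissue, spanned 0.54, 0.32, 0.25, 0.28 and 0.38 over the diets. By their brightest probes, levels of these ligands in the ileum hardly moved with any diet. For Ccl25 the probes disagreed on HFD against CD, at 0.54 log2 for the brightest and −0.53 for the second.

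Of 8 measured monocyte and neutrophil markers 3 fell on HFD, S100a9 by 2.58, S100a8 by 1.91 and Chil3 by 1.5 log2, and none rose. Of 13 inducing cytokines 3 fell, Il22 by 2.31, Il17a by 1.55 and Tnf by 1.03. With porphyran S100a8 rose by 1.97, S100a9 by 1.75 and Il17a by 1.63. Fat cell markers summed to 5.86 on CD, 4.77 on HFD, 5.65 on HFD+PP and 4.66 on HFD+Ex, the same pattern of 2 high and 2 low arrays as Cxcl9 and Ccl8. Of 8 measured 4 fell on HFD, with Retn at −3.40 log2 and Plin1 at −2.30, 5 rose on HFD+PP against HFD, and 5 were lower on HFD+Ex than on HFD+PP. B-cell markers summed to 7.72, 7.13, 7.49 and 7.11, with none of 15 changed on HFD. Their part in the ligand differences was not tested. With the authors' values 9 members changed on HFD and 5 on HFD+PP, and with normexp 0 on each, where 147 genes still rose and 87 fell on HFD. Of all changed genes 267 rose and 376 fell on HFD, against 205 and 485 with the authors' values and 348 and 272 after quantile normalization.

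In colon, 1 member differed between HFD and CD, and the interferon-induced ligands Cxcl9 and Cxcl10 were higher on the porphyran array. On HFD against CD 1 of 35 measured members rose and none fell (2.15% of all genes changed, 0.45% up and 1.7% down), Cxcl5. On HFD+PP 2 of 35 rose (2.88% changed, 1.83% up and 1.05% down) and on HFD+Ex 1 of 35 rose and 1 fell (1.54%, 1.14% up and 0.402% down). Between the supplements 1 of 34 was higher and 4 were lower on HFD+Ex (3.16%, 1.69% higher and 1.47% lower).

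Cxcl10 levels were −0.70, −0.76, 1.37 and −1.18, so that the porphyran array alone stood high, 4.37-fold over HFD and 5.85-fold over HFD+Ex. Cxcl9 levels were −3.02, −2.88, −1.14 and −3.89, 3.35-fold higher with porphyran than on HFD, and its second probe rose by 1.32 log2. With the extract Cxcl9 fell 2.02-fold, where the second probe gave only −0.24. It was 6.75-fold lower on HFD+Ex than on HFD+PP. Ifng, the interferon that induces both, was well above background on the porphyran array alone and at least 2.03 log2 higher there than on HFD, with levels of −5.89, −6.07, −3.82 and −6.07. Cxcr3, the receptor, spanned 0.27, with no change beside its ligands.

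Cxcl5 levels were −2.98, −1.91, −1.61 and −2.42, a 2.11-fold rise on HFD. Ccl3 levels were −4.49, −4.56, −4.23 and −2.56, with the extract array alone high, 3.99-fold over HFD and 3.19-fold over HFD+PP. Cxcl1 (−2.69, −3.59, −2.84 and −4.04) and Ccl12 (−2.04, −2.0, −1.57 and −2.58) stayed within 2-fold of HFD and were 2.30-fold and 2.02-fold lower on HFD+Ex than on HFD+PP. Ccl2 read −2.17, −1.45, −1.70 and −1.93, and Ccr2 −2.19, −2.17, −2.51 and −2.13. Cx3cr1 read 0.91, 1.03, 1.07 and 1.21 and Cxcl12 2.76, 2.60, 2.34 and 2.5, so that the monocyte receptors and Cxcl12 kept near 1 level. With normexp no member changed on HFD or HFD+Ex, beside 15 rising and 103 falling genes and 14 and 7, and 2 differed between supplements, beside 54 and 85.

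On the porphyran array 4 of 14 measured intestinal epithelium markers were also higher than on HFD and none lower, among them Fabp2 by 2.38 and Alpi by 2.37 log2. Their summed level was 10.71, 10.80, 11.02 and 10.75, highest on HFD+PP. Of 16 exocrine pancreas markers 5 were higher and none lower, with Amy2a5 at 3.32, while their summed level of 9.21, 9.36, 8.77 and 9.31 was lowest on HFD+PP. Their part in the Cxcl9 and Cxcl10 differences was not tested.

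**Figure D4:**
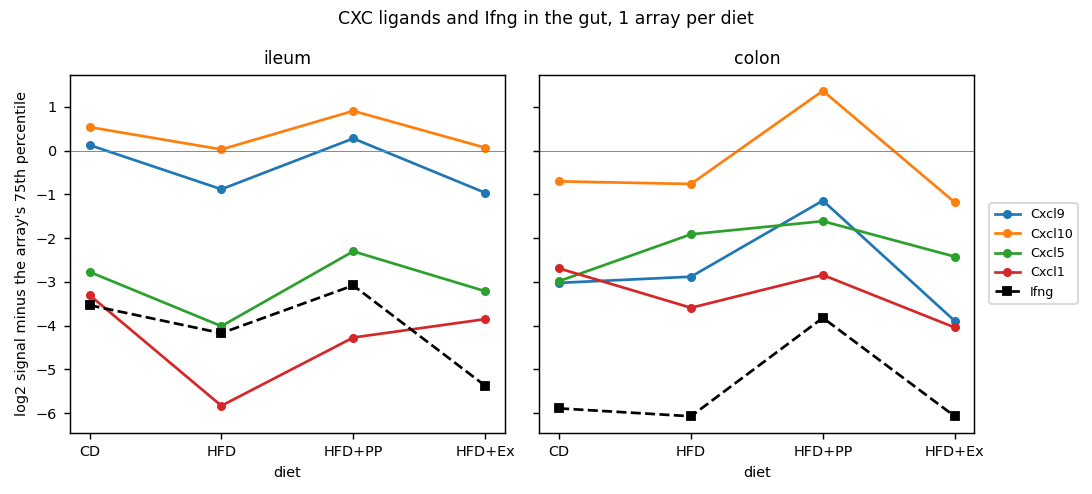
Log2 levels of Cxcl9, Cxcl10, Cxcl5, Cxcl1 and Ifng in ileum and colon by diet (x axis). All markers are filled, also those of levels not well above background, such as Cxcl1 on HFD in ileum and Ifng in colon on all diets but HFD+PP. In colon Cxcl10 reads 1.37 on HFD+PP and −0.76 on HFD, and in ileum Cxcl9 reads 0.28 on HFD+PP and −0.88 on HFD.

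The tissues could be tested, with the 4 diets as 4 matched pools of each tissue. limma was fitted to all 20 arrays with tissue and diet as terms, over 18909 genes, with Benjamini-Hochberg adjustment. The spread between diets then stands as the error, and pools are not single mice. Ileum was set against colon, which lie on different slides, so that tissue and slide cannot be told apart. Of 37 tested members 10 differed at an adjusted p of at most 0.05, 8 higher in ileum and 2 lower, beside 40.1% of all genes, 16.9% higher and 23.2% lower.

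Ccl25, made by the small-intestinal epithelium to guide Ccr9-bearing lymphocytes, differed most. Its ileum levels were 7.18, 7.72, 7.34 and 7.49 and its colon levels 0.51, 0.39, 0.44 and 0.48, a gap of 6.98 ± 0.26 log2 (SE, 4 arrays per tissue, limma adjusted p = 1.2e-10), or 126-fold. With all its probes averaged the gap was 3.94. Its receptor Ccr9 was higher too, by 2.14 ± 0.41 (limma adjusted p = 0.0008), in all 4 diets. Ccl28, which guides antibody-secreting cells to the large bowel, went the other way, with levels of 1.38, 1.15, 1.45 and 1.13 in ileum and 2.5, 2.86, 2.66 and 2.61 in colon, and a difference of −1.38 ± 0.25 (limma adjusted p = 0.00053). The 2 tissues did not overlap for any of these genes.

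Cxcl9 was 2.37 ± 0.38 log2 higher in ileum (limma adjusted p = 0.00019). Ccl4, Ccl5, Cxcr6, Cxcl14 and Cxcl16 were higher by 1.62, 1.57, 1.32, 1.20 and 1.1, in all 4 diets. Cxcl12 was lower by 0.37 ± 0.13 (limma adjusted p = 0.042). That call was lost without the HFD, the HFD+PP or the HFD+Ex arrays. It was also lost after quantile normalization, at −0.38, and with the authors' values, at −0.36. The call of Ccl5 was lost without the HFD+PP arrays. T and NK cell markers summed to 5.33 to 5.71 in ileum and 4.33 to 4.51 in colon, and epithelium markers to 11.40 to 11.75 and 10.71 to 11.02. Their part was not tested. With only the 8 arrays of these tissues 19 of 35 tested members differed, beside 9001 of 17887 genes.

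Mesenteric and brown fat differed in 33 of 37 tested members, 29 higher in mesenteric fat and 4 lower, beside 68.3% of all genes, 30.2% higher and 38.1% lower. Cxcr5, Ccr6 and Ccr7 differed most. Cxcr5 averaged 1.22 in mesenteric fat and −5.61 in brown fat, where it was well above background on no array, so that it was at least 60.7-fold higher (limma adjusted p = 1.3e-07). Ccr6 was 6.63 ± 0.66 log2 higher (SE, limma adjusted p = 5.6e-07), with 3 of its 4 brown fat arrays well above background. Ccr7 was 5.55 and Cxcr3 4.10 higher. Of the ligands Ccl5 was 4.99 ± 0.37 higher (limma adjusted p = 2.8e-08) and Cxcl13 4.18. Each of these was higher in all 4 diets.

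Cxcl14 was lower in mesenteric than in brown fat, by 1.56 ± 0.25 log2 (limma adjusted p = 6.5e-05), and so were Ccl28 by 1.22, Cx3cl1 by 0.62 and Cxcl12 by 0.61. The last turned to 0.86 higher when all Cxcl12 probes were averaged. Ccl25, Ccr3, Cxcl2 and Cxcl9 did not pass, and Ccr1 passed at 0.86 with only 1 mesenteric array above background and turned to −0.56 with normexp. Of the monocyte ligands Ccl2 was 2.01, Ccl7 2.16, Ccl8 2.06, Ccl6 1.74 and Ccl9 1.45 higher. With slide as a further block 28 members differed, beside 10880 of 18909 genes, and Ccl11, Ccl12, Ccl3, Ccl9 and Cxcl1 no longer did, with differences of 1.01, 0.96, 1.12, 1.18 and 1.99. Without the CD arrays Ccl12 and Cxcr2 no longer passed, and without the HFD+Ex arrays Ccl9 and Cx3cl1.

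In the pair of HFD+PP arrays, which share a slide, Ccr6 was 7.09, Ccr7 5.96 and Ccl2 0.89 log2 higher in mesenteric fat. B-cell markers summed to 5.82 to 7.95 in mesenteric fat and 2.27 to 3.34 in brown fat, T and NK cell markers to 4.82 to 7.28 and 3.93 to 4.11, and macrophage markers to 8.24 to 8.85 and 5.38 to 7.01. Their part was not tested. Of all genes 5708 were higher and 7199 lower, against 8550 and 4518 with the authors' values, 4746 and 9465 with normexp and 6889 and 6003 after quantile normalization, with the median gene at −0.21, 0.26, −0.37 and 0.02. Under the authors' scale Cx3cl1 and Cxcl12 stayed lower but no longer passed.

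Ranked by mean level over the diets, 25 of 37 members were highest in mesenteric fat, 7 in ileum, 3 in liver, 2 in colon and none in brown fat. Of 18820 genes ranked in the same way, 16.8% were highest in mesenteric fat, 14.6% in ileum, 25.4% in liver, 14.6% in colon and 28.6% in brown fat. For 7 of the 25 members all mesenteric arrays lay above the range of the next tissue, as for 40.4% of all genes highest there. Liver was lowest for 13 members and brown fat for 11, beside 24.7% and 16.1% of all genes. Cxcr3 and Cxcl14 were the 2 members whose tissues were all separate from their neighbours in rank. Cxcr3 ran mesenteric fat, ileum, colon, liver, brown fat, and Cxcl14 ran ileum, brown fat, colon, mesenteric fat, liver.

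By its brightest probe Cxcl12 was highest in liver, then brown fat, mesenteric fat and colon, and its colon and ileum levels overlapped. The order of the fat depots was not stable. Mesenteric minus brown fat was 0.86 with all Cxcl12 probes averaged and −0.06 after quantile normalization. Ccl28 ran colon, ileum, brown fat, then liver and mesenteric fat overlapping. Cxcl1 was highest in liver, then mesenteric fat, with colon, brown fat and ileum overlapping. Ccl11 was highest in mesenteric fat, then brown fat, with colon and ileum overlapping and liver not well above background on any array. Cx3cl1 was highest in ileum and colon, which overlapped, and lowest in liver. For Ccl2 all 4 neighbouring pairs of tissues overlapped, since its spread over diets was as wide as the gaps between tissues.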

How the data were processed

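RNA of 5 tissues and 4 diets was read on 20 Agilent 1-colour arrays, 1 per tissue and diet, each pooled from 7 mice, per the labels' protocols. Per the file headers the arrays were read with Agilent Feature Extraction 11.5.1.1, which gave the deposited intensity of each spot on a linear scale, already background-subtracted. The second deposited table of intensity is the authors' values, which equal the processed signal times 1 factor per array. What the factor was set to is not given in the sources used here.

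The log2 processed signal minus the 75th percentile of the array was computed here, after 3671 control spots and outlier spots were left out of 62976, and spots of a probe were averaged. Probes were named by RefSeq accession (GRCm38.p6), 28026 of 55681. A gene took its brightest probe. A gene was measured where well above background on 1 of the 2 arrays and called at a log2 difference of 1. On the dim side the floor was the higher of the lowest signal well above background on the array and the probe's own. With 1 array per group no p-value was computed for diets, and precision is limited by that number. Tissues were compared with limma 3.58.1 in R 4.3.3 on all 20 arrays with tissue and diet as terms, with Benjamini-Hochberg adjustment over all genes tested, and the script was tested on simulated data. Labels do not say that pools were made more than once. The p-values thus rest on the spread left between these pools after the tissue and diet terms.

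The members and gene lists were chosen with earlier results of these data known. All 39 members are named. Values on all diets are given for those changed by 2-fold against CD or HFD and for Ccl2, Ccr2, Cx3cr1 and Cxcl12, and marker genes stand beside them, up to 4 a list by size. Alternatives were normexp background correction with an offset of 50, quantile normalization, the authors' values, no filter on dim probes, the mean of all probes, and other arrays or blocks in the tissue fit. The files hold median and not mean spot signals, so normexp used the medians. Some genes that the rule on marker genes names are not reported here.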

Additional observations from a re-analysis of the deposited data

Results flagged for a closer look

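Some members moved by at least 2-fold in opposite directions in different tissues under the same comparison. With 1 array per tissue and diet the difference between tissues was not tested. Values are log2 differences, and "bound" marks those taken against a floor.

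On HFD against CD, Ccl7 was 2.58 (bound) higher in liver, 2.64 in mesenteric fat and 2.18 in brown fat, and −1.37 in ileum. Ccl8 was 1.66 in brown fat and −1.13 in ileum. Cxcl1 was 1.24 in liver, 1.07 in mesenteric fat and 1.45 (bound) in brown fat, and −1.95 (bound) in ileum. These 3 genes are listed because their calls were opposite, and other ligands of monocytes did not share the pattern. Ccl2, Ccl6, Ccl9 and Ccl12 stayed within 2-fold in ileum on HFD, and Ccl8 did so in liver and mesenteric fat. With normexp 0 members changed in ileum on HFD. Cxcl5 was 1.54 (bound) in liver and 1.07 in colon, and −1.24 in ileum. Ccl17 was 1.68 (bound) in brown fat and −1.17 in mesenteric fat. Of the receptors, Cx3cr1 was 2.42 in liver and −1.14 in mesenteric fat. Cxcr4 was 1.15 (bound) in liver and 1.5 in brown fat, and −1.19 in mesenteric fat.

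On HFD+PP against HFD, Cxcl5 was 1.71 in ileum and −1.56 (bound) in liver. On HFD+Ex against HFD, Ccl3 was 1.99 in colon, and −1.42 in liver, −1.19 in mesenteric fat and −1.44 in brown fat. Cxcl1 was 1.40 (bound) in ileum and −1.17 in brown fat, and Cxcl5 was 2.30 in mesenteric fat and −1.36 (bound) in liver. The lymphocyte receptors Ccr7 and Cxcr5 were 2.49 and 2.77 in mesenteric fat and −1.16 and −1.12 (bound) in liver. The mesenteric values of the extract come from arrays on different slides.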

How the results depend on the processing

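Diets could not be compared in pairs, because the labels carry no replicate numbers and each diet has 1 pool per tissue. Tissues were paired by diet. The tissue fits have diet as a term, and without it 11 members differed between ileum and colon and 33 between the fat depots. Of 123 recomputed counts of changed members 100 stayed within 1.5 times. With normexp the counts became 7, 1 and 1 in liver (HFD, HFD+PP, HFD+Ex), 5 on HFD and 4 on HFD+Ex in brown fat, 0, 0 and 1 in ileum with 1 between supplements, and 0 on HFD, 0 on HFD+Ex and 2 between supplements in colon. With the authors' values they became 1 on HFD+PP in brown fat, 9 on HFD and 5 on HFD+PP in ileum, and 1 on HFD+Ex in colon. Without the filter on dim probes they became 3 between supplements in liver, 2 on HFD+PP and 4 between supplements in brown fat, and 3 on HFD and 4 on HFD+Ex in colon. With the mean of all probes 1 member changed on HFD+Ex in colon. Of 131 called differences, 75 stayed at 2-fold with normexp, 128 after quantile normalization, 126 with the authors' values and 127 with the mean of all probes, and none reversed. With only the 8 arrays of the gut tissues 19 of 35 tested members differed between ileum and colon, beside 9001 of 17887 genes. No fit with slide was possible for that pair, whose slides do not overlap. Between the fat depots Cxcl12 turned to 0.86 with the mean of all probes and Ccr1 to −0.56 with normexp. The causes were not tested. Leaving out the arrays of 1 diet gave 9 to 12 members for ileum and colon and 30 to 33 for the fat depots. Signals near the floor limit the dim genes, among them Cxcl2, Ccl22, Ccr1 and Ccl20.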
